A study of Mus musculus with 6 samples.

Results

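In all, 10 liver genes of acyl-CoA metabolism were followed here across 6 mouse livers: the acyl-CoA thioesterase genes Acot1, Acot2, Acot3, Acot4, Acot12 and Acot13 and the medium-chain acyl-CoA synthetase genes Acsm1, Acsm2, Acsm3 and Acsm5. They were picked by symbol, 10 of 16426 genes listed in at least 1 library, and all 10 were listed and tested. The choice was made with the shRNA contrast of these livers already known, so their levels and fold changes are a description and carry no test. The livers came from male wild-type mice of mixed B6:sv129 background, 7 to 12 weeks old. AAV8 given into the tail vein carried a scrambled shRNA in 3 of them (scramble 1 to 3) and an shRNA against S1pr2, the sphingosine-1-phosphate receptor 2 gene, in the other 3 (S1PR2 1 to 3). Per the series text, the mice drank about 0.84 mg/kg of dexamethasone, a synthetic glucocorticoid, for 7 days, so both arms carried the virus and the steroid, and livers without them were not analysed here. No source used here names the promoter that drives the shRNAs. The labels do not state that replicates were separate animals, so a liver here means 1 sample. The p-values measure the spread between these samples, which may be technical.

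A fatty acid enters metabolism as a thioester with coenzyme A. Synthetases of the ACSM family, which sit in the mitochondrial matrix, make that thioester from medium-chain and short-chain fatty acids and from aromatic acids such as benzoate, the first step of their conjugation with glycine. Thioesterases of the ACOT family do the reverse and hydrolyse acyl-CoA to the free acid and coenzyme A, in the cytosol (ACOT1, ACOT12), the mitochondrion (ACOT2) or the peroxisome (ACOT3, ACOT4). In liver the Acot1 to Acot6 genes are known for their rise on fasting and with activation of PPAR alpha, the fatty acid-sensing nuclear receptor.

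Acot1 and Acot2 are neighbours on chromosome 12 and near copies, so a read can fall on both, and the sequences below are shown because the Acot1 and Acot2 values rest on the bases that tell them apart. Their coding sequences (GENCODE M21, GRCm38) matched at 95.24% of 1239 aligned bases, with 59 mismatches, and Acot2 had 123 coding bases ahead of the first Acot1 base. Of all 50-base windows of the coding sequence, 527 were common to both, 43.5% of the Acot1 and 40.1% of the Acot2 windows. Over whole transcripts the count was also 527, which is 23.86% of the Acot1 and 24.55% of the Acot2 windows. The longest identical run was 273 bases. The first 120 bases of that run, in exon 3 of 3 of each gene, lie at chr12:84017006-84017125 (plus strand) in Acot1 and at chr12:83992728-83992847 in Acot2.
Acot1 and Acot2, shared stretch: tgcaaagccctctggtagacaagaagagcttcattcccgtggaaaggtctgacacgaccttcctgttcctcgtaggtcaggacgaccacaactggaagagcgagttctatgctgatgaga
The 120 coding bases just before it (chr12:84016886-84017005 in Acot1, chr12:83992608-83992727 in Acot2) held 14 differences, no stretch of that length held more, and capitals mark the bases that differ from Acot1. Acot3 (exon 4 of 4, chr12:84058527-84058646) differed from Acot1 at 47 of the same 120 bases.
Acot1: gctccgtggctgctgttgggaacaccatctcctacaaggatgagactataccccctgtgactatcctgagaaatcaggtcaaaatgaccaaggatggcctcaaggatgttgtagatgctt
Acot2: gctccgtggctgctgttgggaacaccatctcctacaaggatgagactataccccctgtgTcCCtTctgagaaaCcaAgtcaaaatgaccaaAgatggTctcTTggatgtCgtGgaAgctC
Acot3: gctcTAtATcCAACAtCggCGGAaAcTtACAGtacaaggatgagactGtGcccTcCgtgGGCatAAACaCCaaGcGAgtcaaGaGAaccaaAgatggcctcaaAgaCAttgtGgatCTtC
A 50-base read lying within the shared stretch cannot name its gene, whereas one that covers the capitals of the second stretch can. The remaining pairs among Acot1 to Acot6 shared between 75.2 and 85.84% of their aligned coding bases. The Acsm1 to Acsm5 genes were farther apart, at 62.05 to 66.76%, with 0 coding windows of 50 bases in common.

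**Figure D1:**
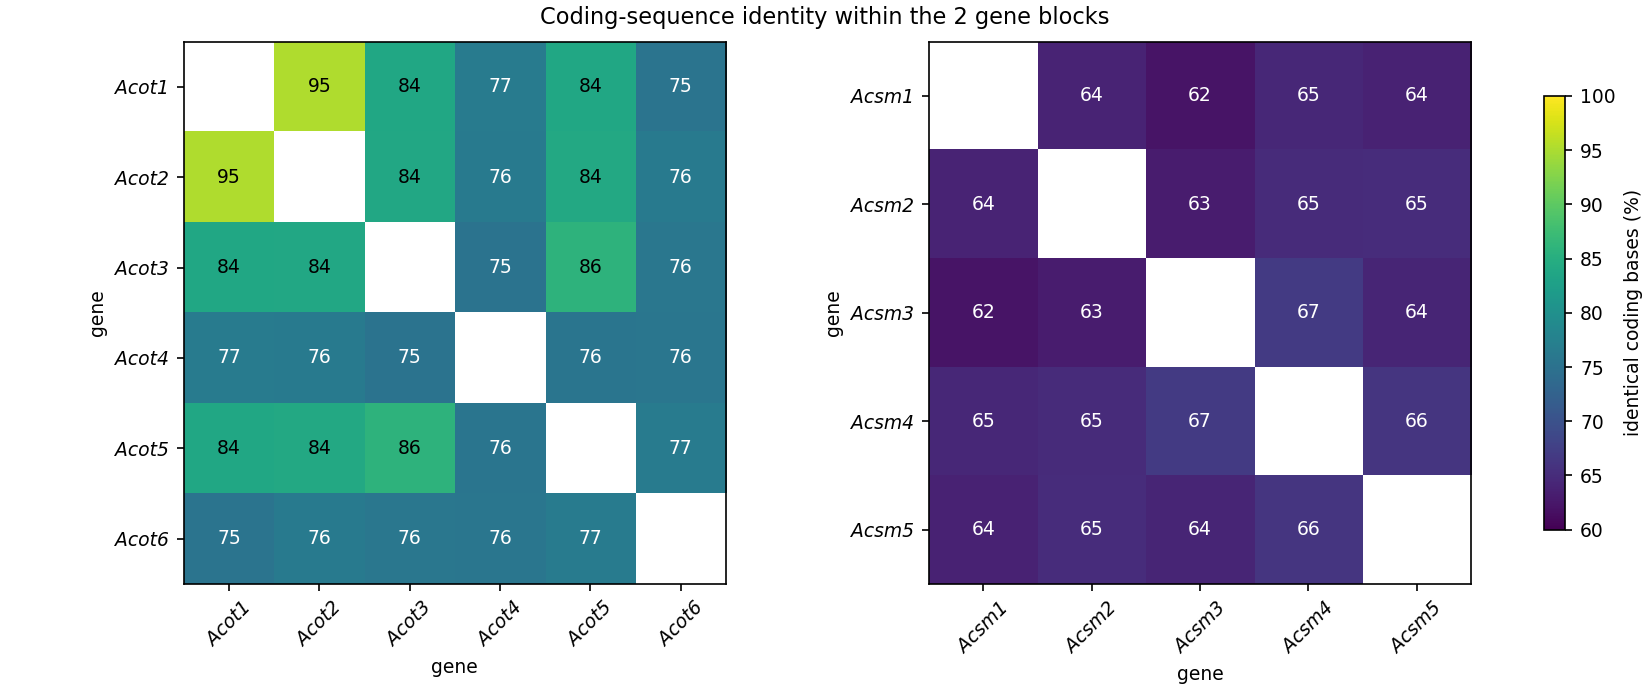
Percentage of identical coding bases for each pair of genes among Acot1 to Acot6 (left) and Acsm1 to Acsm5 (right), with gene names on both axes. Acot1 and Acot2 stand out at 95%, and no Acsm pair exceeds 67%.

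These overlaps were visible in the deposited values. An expected count is the number of fragments that RSEM assigns to a gene, and it is not whole when a fragment is split between genes. Acot1, Acot2, Acot3, Acot4, Acsm2 and Acsm3 had fractional expected counts in all 6 libraries, and Acot12, Acot13, Acsm1 and Acsm5 in 0. Acsm3 had no same-strand match of 50 bases in any other gene, but 734 of its 2896 transcript windows (25.35%) matched Eri2 on the opposite strand. Opposite-strand matches also covered 11.8% of the Acot4 windows. The strand handling is not given in the sources used here, so reads of such partners cannot be told apart, and the values of the 6 fractional genes are uncertain.

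The S1pr2 level checked the labels. It was 4.41, 5.23 and 6.66 CPM (counts scaled to library size, here with TMM factors, which adjust for composition) in scramble 1 to 3 and 3.04, 2.20 and 2.22 CPM in S1PR2 1 to 3. Every S1PR2 liver lay under every scramble liver, and the log2 fold change was -1.12 (SE 0.24, edgeR adjusted p = 0.0301). Permuting the 6 livers' CPM exactly (two-sided) gave p = 0.1, the smallest that 3 livers against 3 can give. The call was lost without scramble 2 (adjusted p = 0.0785), scramble 3 (0.0962), S1PR2 2 (0.117) or S1PR2 3 (0.101). The libraries held 16558775 to 17410160 expected counts. Hepatocyte markers were abundant, with a summed level of 135800 to 165800 CPM in scramble and 88790 to 131900 CPM in S1PR2 livers, and the lowest sum belonged to S1PR2 1. Of the hepatocyte, cholangiocyte, macrophage, stellate and endothelial marker lists, 0 of 10, 1 of 7, 0 of 8, 0 of 8 and 4 of 8 tested genes were called higher by edgeR and 0 lower. Of all tested genes, 3.02% were called higher and 4.64% lower. At an unadjusted p under 0.05 the hepatocyte list had 1 gene higher and 3 lower, as DESeq2 called them, the macrophage list 1 higher (DESeq2 1) and the stellate list 1 higher (DESeq2 0), and limma-voom called 0 in all 3. The cholangiocyte list had 3 higher at that threshold (DESeq2 1, limma-voom 0) and the endothelial list 5 (DESeq2 5, limma-voom 4), with 0 lower in both. The endothelial sum was 175 to 187 CPM in scramble and 210 to 231 CPM in S1PR2 livers, the cholangiocyte sum 28.9 to 55.5 and 48.1 to 111 CPM, the macrophage sum 94.1 to 166 and 131 to 256 CPM, and the stellate sum 206 to 456 and 316 to 494 CPM. The upper ends of these last 3 lists in the S1PR2 livers belonged to S1PR2 1, and the sums of the other S1PR2 livers lay inside the scramble ranges. Lymphocyte markers summed to 1.10 to 3.21 and 4.39 to 7.23 CPM, and kidney tubule markers to 0.674 to 1.63 and 0.804 to 2.07 CPM, with Aqp2, Slc22a6 and Umod under 0.1 CPM in every library. The part of these marker levels in the Acot and Acsm values was not tested, and in bulk liver fewer cells of a type and less RNA per cell cannot be told apart.

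Across the 10 genes, 3 were called higher in the S1PR2 livers (Acot1, Acsm1, Acsm2), 1 was called lower (Acot12) and 6 were not called. A call is an edgeR quasi-likelihood adjusted p under 0.05 over all 12230 genes tested, of which 7.66% were called, 3.02% higher and 4.64% lower. The choice of genes used this contrast, so nothing is read from that count. Without scramble 3 or S1PR2 2 only Acot1 was called, without scramble 1 Acot1 and Acot12, and without S1PR2 3 Acot1, Acsm2 and Acot12. The groups did not overlap for 4 genes that were higher (Acot1, Acsm1, Acsm2, Acsm5) and 2 that were lower (Acot12, Acsm3), against 15.1% and 16.8% of all tested genes. Their median log2 fold change was 0.305, beside 0.012 for all tested genes. On log2 FPKM (fragments scaled to transcript length and depth), the median of all genes moved to 0.157 with a pseudocount of 0.1 and to 0.102 with 1. The share of lower genes among all called ones, 60.6%, was 48.5% with upper-quartile scaling and 30.8 and 30.6% on FPKM.

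**Figure D2:**
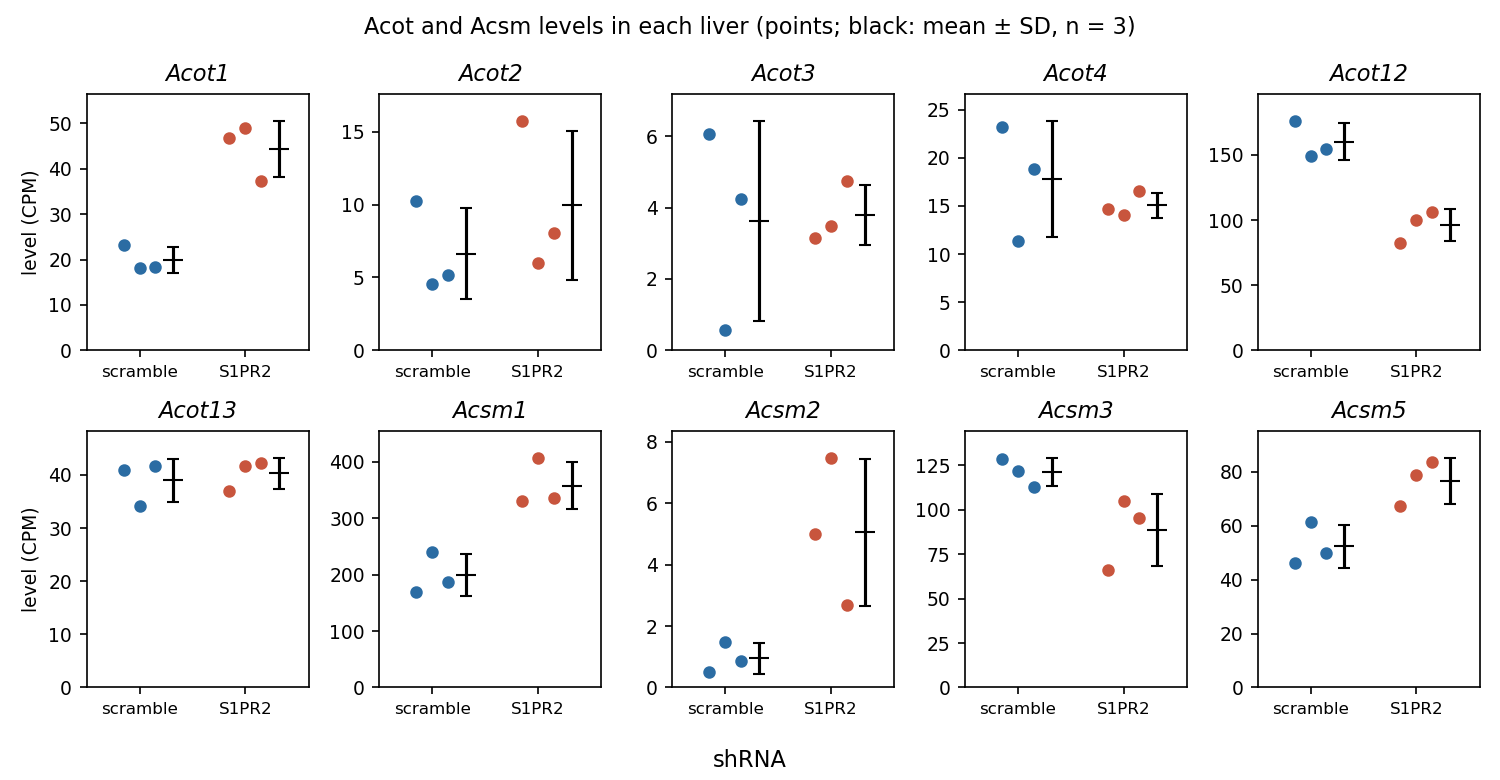
Level in CPM (vertical axis, from 0) of each of the 10 genes in the 3 scramble (blue) and 3 S1PR2 shRNA (orange) livers, with the mean ± SD in black. Acot1, Acsm1, Acsm2 and Acsm5 lie higher and Acot12 and Acsm3 lower without overlap, while Acot2, Acot3, Acot4 and Acot13 overlap.

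Among the cytosolic thioesterases, Acot1 and Acot12 went in opposite directions. Acot1 (Entrez gene 26897), which hydrolyses long-chain acyl-CoA, stood at 23.1, 18.2 and 18.4 CPM in scramble 1 to 3 and at 46.8, 48.9 and 37.3 CPM in S1PR2 1 to 3. The lowest S1PR2 liver was well above the highest scramble liver. The means were 19.9 ± 2.76 and 44.3 ± 6.19 CPM (SD, n = 3), a log2 fold change of 1.15 (SE 0.15), or 2.23-fold. Acot1 was called higher under all 17 alternative settings, with log2 fold changes of 1.08 to 1.29. Acot12 (74156), which hydrolyses acetyl-CoA, stood at 176, 149 and 155 CPM in scramble and at 82.3, 99.8 and 106 CPM in S1PR2 livers. All S1PR2 livers were below all scramble livers, with means of 96.2 ± 12.5 against 160 ± 14.2 CPM (SD, n = 3) and a log2 fold change of -0.73 (SE 0.14). Its call was lost without scramble 3 (-0.76) or S1PR2 2 (-0.76). The lowest Acot12 level belonged to S1PR2 1, the liver with the lowest hepatocyte marker sum. Without that liver the log2 fold change was -0.63 and the call held. The sums of the remaining S1PR2 livers (131900 and 127400 CPM) also lay under the lowest scramble sum (135800 CPM). Leaving out S1PR2 1 thus does not remove the difference in marker level, whose part in the Acot12 values was not tested.

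Acot13 (66834), a small thioesterase that acts on long-chain acyl-CoA, was nearly flat. Its levels were 41.0, 34.2 and 41.6 CPM in scramble and 37.0, 41.6 and 42.3 CPM in S1PR2 livers, and the groups overlapped. The log2 fold change was 0.05 (SE 0.11), and it turned to -0.05 without scramble 2.

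The organelle thioesterases of the Acot1 to Acot6 block, Acot2, Acot3 and Acot4, overlapped between the groups; their difference from Acot1 was not tested. Acot2 (171210), the mitochondrial near copy of Acot1, stood at 10.2, 4.54 and 5.14 CPM in scramble and at 15.7, 6.00 and 8.08 CPM in S1PR2 livers. The groups overlapped, with 1 high liver in each (scramble 1 and S1PR2 1), and the log2 fold change of 0.59 (SE 0.46) was not called. It was 0.08 without S1PR2 1 and 1.04 without scramble 1. Acot3 (171281), which is peroxisomal, stood at 6.07, 0.560 and 4.24 CPM in scramble and at 3.14, 3.49 and 4.74 CPM in S1PR2 livers. Scramble 2 was 10.8-fold under scramble 1, and the S1PR2 livers lay inside that range. The log2 fold change of 0.06 (SE 0.70) turned to -0.45 without scramble 2 and to -0.14 without S1PR2 3. Acot4 (171282), a peroxisomal thioesterase that acts on succinyl-CoA and other dicarboxylyl-CoA, stood at 23.2, 11.3 and 18.9 CPM in scramble and at 14.7, 14.0 and 16.5 CPM in S1PR2 livers. Here too scramble 2 was low, the groups overlapped, and the log2 fold change was -0.24 (SE 0.24).

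Summing the expected counts of Acot1 to Acot6 keeps reads shared by the copies inside 1 value. The sum was 63.9, 35.7 and 47.8 CPM in scramble and 81.3, 73.3 and 67.6 CPM in S1PR2 livers. All S1PR2 livers were above all scramble livers, with a log2 fold change of 0.59 (SE 0.20), which is a description with no call read for it. Within the sum, Acot1 held 36.2, 51.0 and 38.6% in scramble and 57.6, 66.7 and 55.2% in S1PR2 livers. The Acot4 share was 36.4, 31.6 and 39.6% in scramble and 18.1, 19.1 and 24.4% in S1PR2 livers. Shares of 1 sum are bound to each other, so a larger Acot1 share leaves less for the rest. The Acot4 level itself overlapped between the groups. The ratio of Acot1 to Acot2 FPKM, a ratio of levels per length, was 3.23, 5.75 and 5.10 in scramble and 4.25, 11.7 and 6.61 in S1PR2 livers, so the groups overlapped in it.

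In the synthetase family Acsm1 was the most abundant gene and Acsm2 the scarcest. Acsm1 (117147), a butyrate-activating enzyme, stood at 170, 241 and 187 CPM in scramble and at 331, 406 and 336 CPM in S1PR2 livers. Every S1PR2 liver was above scramble 2, the highest control. The means were 199 ± 37.0 and 358 ± 42.2 CPM (SD, n = 3), a log2 fold change of 0.85 (SE 0.17). The call was lost without scramble 1 (0.74), scramble 3 (0.80), S1PR2 2 (0.74) or S1PR2 3 (0.88). Its counts were whole in all 6 libraries, and no 50-base window of it matched another gene.

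Acsm2 (233799), which activates benzoate and medium-chain acids and is a kidney and liver gene, was near the lower end of detection in the scramble livers. Its expected counts were 7.91, 23.98 and 13.75 in scramble and 98.82, 121.62 and 46.13 in S1PR2 livers, which is 0.490, 1.49 and 0.847 against 5.01, 7.47 and 2.69 CPM. All S1PR2 livers were above all scramble livers, with S1PR2 3 the lowest of them. The means were 0.944 ± 0.509 and 5.06 ± 2.39 CPM (SD, n = 3), a log2 fold change of 2.41 (SE 0.49). The call was lost with limma-voom (2.40), on log2(FPKM + 1), where the log2 fold change was 0.64, and without scramble 1 (2.10), scramble 3 (2.34), S1PR2 1 (2.42) or S1PR2 2 (2.02). Its counts were fractional in all 6 libraries.

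Acsm3 and Acsm5 went apart from each other. Acsm3 (20216) stood at 129, 122 and 113 CPM in scramble and at 66.2, 105 and 95.3 CPM in S1PR2 livers. The groups did not overlap, with S1PR2 1, the liver with the lowest hepatocyte marker sum, far under the other 5, and the log2 fold change of -0.45 (SE 0.17) was not called. Without S1PR2 1 it was -0.28, in a fit where the hepatocyte sums of the S1PR2 livers were still under every scramble sum. Acsm5 (272428), the least studied of the family, stood at 46.0, 61.3 and 49.9 CPM in scramble and at 67.3, 78.9 and 83.7 CPM in S1PR2 livers. All S1PR2 livers were above all scramble livers, and the log2 fold change of 0.55 (SE 0.14) was not called. It was called under 7 of 17 alternatives, with log2 fold changes of 0.46 to 0.70 over all 17, among them DESeq2 and both FPKM settings.

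The Acsm1 to Acsm5 sum was 345, 425 and 351 CPM in scramble and 470, 598 and 518 CPM in S1PR2 livers. Its log2 fold change of 0.50 (SE 0.16) is likewise a description with no call read for it. Acsm1 made up 49.2, 56.6 and 53.2% of it in scramble and 70.5, 68.0 and 64.9% in S1PR2 livers. The Acsm3 share was 37.3, 28.6 and 32.2% in scramble and 14.1, 17.6 and 18.4% in S1PR2 livers. Acsm5 held between 13.2 and 16.2% of the sum in every liver. The ratio of Acsm1 to Acsm3 FPKM was 1.69, 2.52 and 2.11 in scramble and 6.42, 4.93 and 4.48 in S1PR2 livers, with no overlap.

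**Figure D3:**
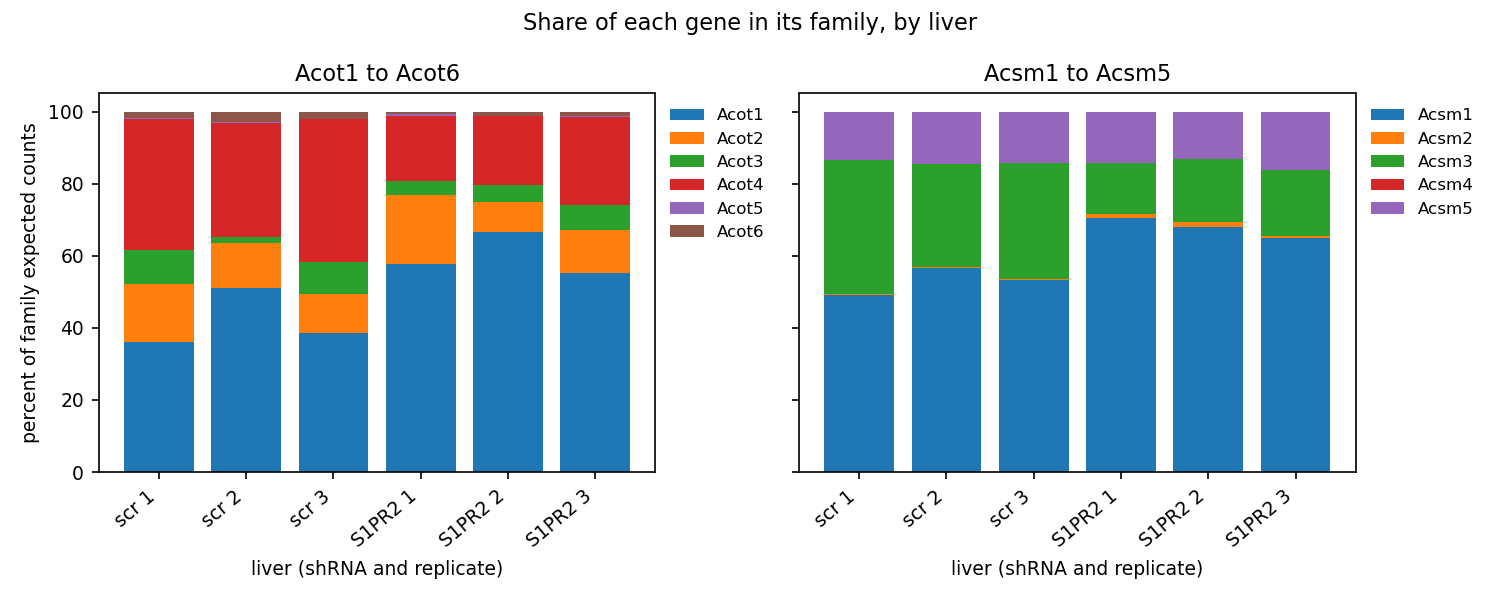
Percentage of the summed expected counts of Acot1 to Acot6 (left) and Acsm1 to Acsm5 (right) held by each gene, 1 bar per liver. The Acot1 share runs from 36.2 to 51.0% in scramble and from 55.2 to 66.7% in S1PR2 livers, and the Acsm1 share from 49.2 to 56.6% and from 64.9 to 70.5%.

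Per length, the 10 genes spanned a wide range. In scramble livers the order of mean FPKM was Acsm1 (92.0), Acot13 (55.8), Acot12 (49.4), Acsm3 (44.0), Acsm5 (19.7), Acot1 (12.2), Acot4 (7.28), Acot2 (2.85), Acot3 (1.34) and Acsm2 (0.133). The ranges over the livers overlapped or touched between Acot13 and Acot12, Acot12 and Acsm3, Acot4 and Acot2, Acot2 and Acot3, and Acot3 and Acsm2. In S1PR2 livers Acsm1 led at 183 FPKM and Acot13 followed at 63.8. Acsm3 (35.4), Acot12 (32.8), Acsm5 (31.9) and Acot1 (30.1) followed, and their ranges over the livers overlapped. The spread between scramble livers also differed by gene. The coefficient of variation was 77.4% for Acot3, 53.9% for Acsm2, 47.1% for Acot2 and 33.8% for Acot4, and between 6.55 and 18.6% for the other 6 genes.

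The scramble livers were not alike in sex-biased genes either, although all mice were male per the series text. The log2 level relative to the scramble mean was averaged over the genes of each list. For 17 male-biased genes this average was -1.14, 1.19 and -0.05 in scramble 1 to 3 and 1.13, 1.65 and 0.88 in S1PR2 livers. For 11 female-biased genes it was 0.93, -0.88 and -0.05 in scramble and -1.71, -2.02 and -1.42 in S1PR2 livers. Acot1, Acot2, Acot3, Acot4 and Acot12 were highest in scramble 1 and lowest in scramble 2, the order of the female-biased list among the controls. In the S1PR2 livers, where that list was lower, Acot12 was also lower and Acot1 was higher, both without overlap. Acot2, Acot3 and Acot4 overlapped between the groups. Acsm1, Acsm2 and Acsm5 were lowest in scramble 1 and highest in scramble 2, the order of the male-biased list. The part of these lists in the shRNA difference of those genes was not tested. For 37 PPAR alpha targets the same average was 0.185, -0.131 and -0.054 in scramble and -0.279, -0.06 and -0.244 in S1PR2 livers.

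The genes around the Acot and Acsm blocks were read from the same fit. In RefSeq gene order on GRCm38, used for order only, 8 other genes lie within or next to the Acot1 to Acot6 block, of which 3 were tested and edgeR called 0. At an unadjusted p under 0.05 the count was also 0, as it was by DESeq2 and by limma-voom. They were Riox1 (log2 fold change 0.35, edgeR adjusted p = 0.362), Dnal1 (-0.30, 0.739) and Mideas (0.28, 0.238). Around and within the Acsm1 to Acsm5 block, 5 of 13 other genes were tested and 1 was called, against a background of 7.66%. That gene was Pdilt, which lies next to Acsm5 and encodes a testis-enriched protein disulfide isomerase relative. Pdilt stood at 1.59, 3.67 and 2.24 CPM in scramble and at 17.9, 14.7 and 10.8 CPM in S1PR2 livers. Each S1PR2 liver was far above each scramble liver, and Pdilt rose by 2.53 on the log2 scale (SE 0.32, edgeR adjusted p = 0.00751; 1.28e-11 to 0.0381 over 18 alternatives). Thumpd1, between Acsm4 and Acsm3, had a log2 fold change of 0.14, and Eri2, which overlaps Acsm3, one of -0.32. Neither was called, nor were Rexo5 (-0.26) and Dcun1d3 (-0.69). In gene order the values ran from 2.53 at Pdilt through 0.55, 2.41 and 0.85 at Acsm5, Acsm2 and Acsm1 to 0.14 at Thumpd1 and -0.45 at Acsm3.

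**Figure D4:**
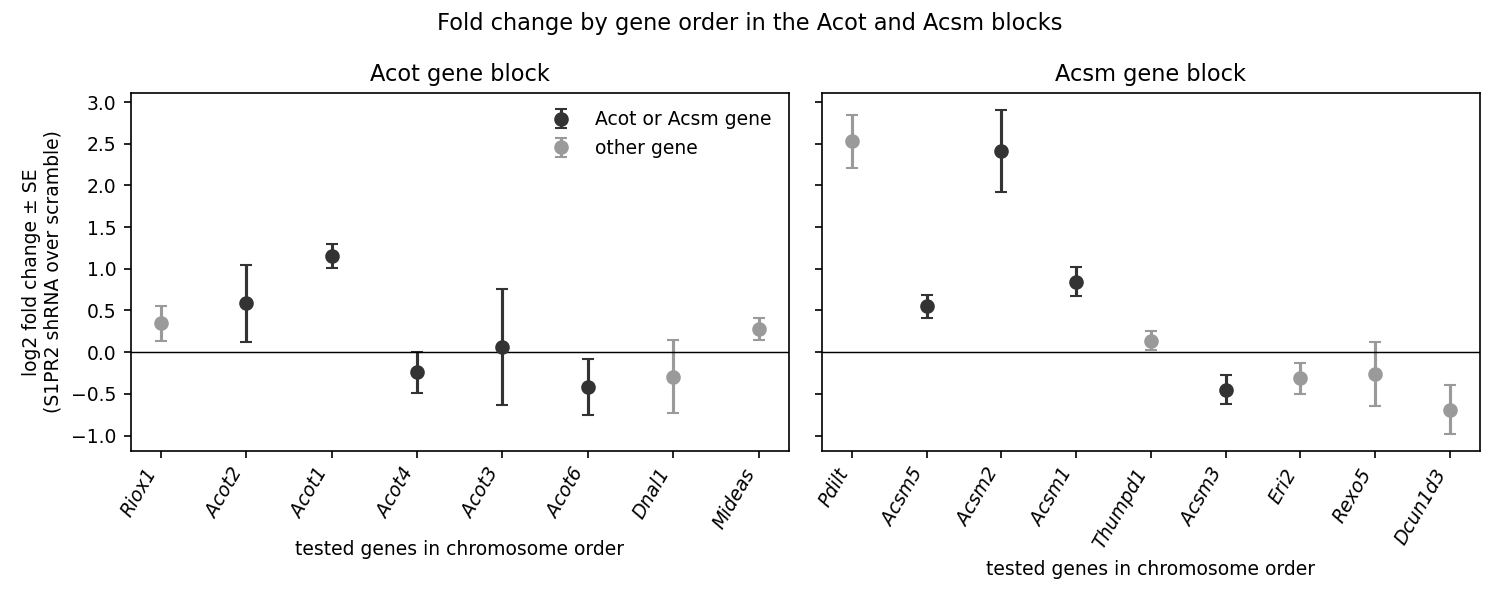
Log2 fold change of S1PR2 shRNA over scramble ± SE (vertical axis) for the tested genes in chromosome order, in the Acot block (left) and the Acsm block (right), with Acot and Acsm genes in dark and other genes in light grey. Pdilt at 2.53 and Acsm2 at 2.41 are the highest points, and Dcun1d3 at -0.69 the lowest.

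Promoter sequence is shown for Acot1 and Acot2, which share coding sequence but not a call, and for Acot12 and Acsm1, which were called in opposite directions. RefSeq start-site windows (GRCm38.p6, 250 bases before to 50 after the start) were found for 9 of the 10 genes, all but Acot13, and gave 11 windows. The last 150 bases before the start are shown, with capitals on AGGTCA or its reverse complement TGACCT, the core motif that nuclear receptors such as PPAR alpha bind.
Acot1 (chr12:84009352-84009501, plus strand): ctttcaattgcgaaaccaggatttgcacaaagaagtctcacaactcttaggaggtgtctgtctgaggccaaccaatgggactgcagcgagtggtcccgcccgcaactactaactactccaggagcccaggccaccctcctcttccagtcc
Acot2 (chr12:83987711-83987860, plus strand): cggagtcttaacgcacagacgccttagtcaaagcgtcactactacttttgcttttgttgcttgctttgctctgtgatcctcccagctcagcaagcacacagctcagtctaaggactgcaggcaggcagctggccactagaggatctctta
Acot12 (chr13:91741371-91741520, plus strand): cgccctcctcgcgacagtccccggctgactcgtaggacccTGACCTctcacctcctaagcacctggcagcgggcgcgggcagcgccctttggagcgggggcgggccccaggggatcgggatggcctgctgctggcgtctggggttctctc
Acsm1 (chr7:119617662-119617811, plus strand): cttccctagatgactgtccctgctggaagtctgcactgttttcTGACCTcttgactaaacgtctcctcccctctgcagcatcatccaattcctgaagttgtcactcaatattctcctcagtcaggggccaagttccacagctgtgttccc
The longest run common to the full Acot1 and Acot2 windows was 9 bases. AGGTCA on either strand was found in 4 of the 9 genes (Acot3, Acot4, Acot12 and Acsm1), in 5 of their 11 windows, and in 16.26% of 32851 mouse windows of that length. The Acot3 windows, which begin at bases 84051894 and 84051901, overlap and hold the same match, so the 5 windows are not 5 separate sites. A pair of AGGTCA in the same direction 1 base apart was in 0 of the 11 windows and in 13 of all windows (0.0396%). The 4 genes with a match include 1 called higher, 1 called lower and 2 not called.

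The wider acyl-CoA pathway was read from the same fit. Of 102 tested genes in 5 lists (other thioesterases, other acyl-CoA synthetases, coenzyme A supply, acyl-CoA conjugation and binding, PPAR alpha targets), 4 rose and 7 fell, and 91 did not pass. Their median log2 fold change was -0.089. The 11 called genes are 10.8% of the lists, beside 7.66% of all tested genes, and DESeq2 called 26 (8 higher, 18 lower), beside 12.0% of all tested genes by that tool. Without S1PR2 2 or S1PR2 3 the count fell to 4, and without scramble 3 to 6.

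Of 16 other thioesterases 0 rose and 2 fell, with a median of -0.092. The called share was 12.5%, beside 7.66% of all tested genes. At an unadjusted p under 0.05 edgeR had 1 higher and 3 lower. DESeq2 called 1 higher and 2 lower, and limma-voom 0 higher and 2 lower. Acot11, a thioesterase of brown fat and liver, fell from 56.1 ± 16.2 to 29.6 ± 1.48 CPM (-0.92 on the log2 scale, SE 0.21; edgeR adjusted p = 0.0392). Ppt1, the lysosomal palmitoyl-protein thioesterase, fell from 38.9 ± 5.2 to 26.2 ± 1.91 CPM (-0.57, SE 0.12, edgeR adjusted p = 0.0341). Both had fractional counts in all 6 libraries and lost their call without scramble 1, scramble 2 or any S1PR2 liver (adjusted p = 0.0575 to 0.138), and on log2 FPKM (0.103 to 0.143). Abhd17c, a protein depalmitoylase (0.47, adjusted p = 0.0563), and Acot8, a peroxisomal thioesterase (-0.54, 0.19), did not pass.

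Of 16 other acyl-CoA synthetases 0 rose and 2 fell, with a median of -0.065. The called share was 12.5%, beside 7.66% of all tested genes. At an unadjusted p under 0.05 edgeR had 2 higher and 4 lower. DESeq2 called 1 higher and 3 lower, and limma-voom 0 higher and 2 lower. Acss3, a mitochondrial propionate-activating synthetase, fell from 25.1 ± 10.1 to 8.30 ± 1.51 CPM (-1.60 on the log2 scale, SE 0.29; edgeR adjusted p = 0.0253). Acsl5, a long-chain synthetase, fell from 340 ± 44.5 to 212 ± 14.8 CPM (-0.68, SE 0.14, edgeR adjusted p = 0.0293). Acss3 lost its call without any 1 of the S1PR2 livers (adjusted p = 0.0789 to 0.0842), and Acsl5 without scramble 1, scramble 3 or any S1PR2 liver (0.0575 to 0.106) and on log2 FPKM (0.0556 and 0.0564). Acsl1, the main long-chain synthetase of liver, went from 874 ± 1.97 to 508 ± 126 CPM without a call (adjusted p = 0.0561). Slc27a1, a fatty acid transporter with synthetase activity, went from 3.99 to 7.48 CPM (0.0575).

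Coenzyme A supply and breakdown had 1 riser and 1 faller among 18 tested genes. The called share was 11.1%, beside 7.66% of all tested genes. At an unadjusted p under 0.05 edgeR had 1 higher and 7 lower. DESeq2 called 1 higher and 4 lower, and limma-voom 1 higher and 1 lower. Dcakd, which has a dephospho-coenzyme A kinase domain, rose from 20.7 ± 0.573 to 32.9 ± 3.35 CPM (0.67 on the log2 scale, edgeR adjusted p = 0.0127). Coasy, the enzyme of the last steps of coenzyme A synthesis, fell from 112 ± 1.94 to 76.1 ± 6.01 CPM (-0.56, edgeR adjusted p = 0.0201). Dcakd lost its call without scramble 3 (0.0501) or S1PR2 2 (0.0592), and Coasy without scramble 2, scramble 3, S1PR2 2 or S1PR2 3 (0.0522 to 0.0839). The pantetheinase Vnn3 (-0.79, adjusted p = 0.0795) and the pantothenate kinase Pank3 (-0.66, 0.0922) did not pass.

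Of 17 tested genes of acyl-CoA conjugation and binding, Crot rose and Abcd4 fell. The called share was 11.8%, beside 7.66% of all tested genes. At an unadjusted p under 0.05 edgeR had 1 higher and 4 lower. DESeq2 called 1 higher and 4 lower, and limma-voom 1 higher and 1 lower. Crot, the peroxisomal carnitine octanoyltransferase that passes medium-chain acyl groups to carnitine, went from 109 ± 8.40 to 220 ± 14.1 CPM (1.02 on the log2 scale, SE 0.12; edgeR adjusted p = 0.00531, and 2.04e-13 to 0.0317 over 18 alternatives). Its counts were whole in every library, and it was called in each of the 18 alternatives. Abcd4, a lysosomal cobalamin transporter of the same protein family as the peroxisomal acyl-CoA transporters, fell from 24.6 ± 4.17 to 12.4 ± 2.60 CPM (-0.99, edgeR adjusted p = 0.0199). It lost its call without scramble 2, scramble 3, S1PR2 1 or S1PR2 3 (0.0545 to 0.0745), and its counts were fractional in all 6 libraries. The mitochondrial carnitine carrier Slc25a20 (-0.58, adjusted p = 0.0626) and the carnitine acetyltransferase Crat (-0.81, 0.0691) did not pass.

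Among 37 PPAR alpha targets 2 rose, 1 fell and 34 did not pass, with a median of -0.11. The called share was 8.11%, near the 7.66% of all tested genes. At an unadjusted p under 0.05 edgeR had 4 higher and 9 lower. DESeq2 called 4 higher and 6 lower, and limma-voom 2 higher and 1 lower. The groups did not overlap for 4 higher and 10 lower genes, against 15.1% and 16.8% of all tested genes. Cyp4a12b, a fatty acid hydroxylase that is also on the male-biased list, rose from 149 ± 48.1 to 513 ± 93.4 CPM (1.79 on the log2 scale, edgeR adjusted p = 0.0103), with fractional and so uncertain counts in all 6 libraries. Hsd17b11, a lipid droplet dehydrogenase, rose from 152 ± 20.3 to 233 ± 23.9 CPM (0.62, edgeR adjusted p = 0.0431), and lost its call without any 1 of the scramble livers, S1PR2 2 or S1PR2 3 (0.0671 to 0.134). Txnip, an inhibitor of thioredoxin, fell from 168 ± 19.5 to 71.3 ± 17.3 CPM (-1.23, edgeR adjusted p = 0.0113). Acadvl, the very long-chain acyl-CoA dehydrogenase, did not pass (-0.47, adjusted p = 0.0653). The fatty acid hydroxylases Cyp4a10 and Cyp4a14, textbook PPAR alpha targets chosen here after their values were seen, had log2 fold changes of -1.75 (adjusted p = 0.149) and -1.98 (0.131). Cyp4a10 stood at 1322, 348 and 500 CPM in scramble and at 105, 264 and 275 CPM in S1PR2 livers, lower without overlap. It was highest in scramble 1 and lowest in scramble 2, the order of the female-biased list among the controls. Acot1 was higher, like the 4 targets that were higher without overlap. The part of PPAR alpha in the Acot1 level was not tested.

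Genes whose log2 CPM ran most like each of the 8 members with a mean of at least 5 CPM were looked up among 8786 genes over the 6 libraries, which share the shRNA groups, so the coefficients are descriptions. Acot1 ran closest to Fbxw5 and Rpa1 (Pearson r = 0.996 each), whose fold changes were small (0.20 and 0.24). Acot12 ran with Apoc3 (0.997), the apolipoprotein C3 gene, which went from 3097 to 1594 CPM, and with Rab5a (0.996). Acsm1 ran with Tmem198b (0.993) and with Nrp1 (0.992), a co-receptor that went from 28.4 to 62.4 CPM. Acsm5 ran with Lpar6 (0.995), a lysophosphatidic acid receptor that went from 12.9 to 21.6 CPM, and with Ppp1r7 (0.993). Acsm3 ran with Lrrc57 (0.993) and Abcb8 (0.992). Acot2 ran with Rap1b (0.996) and Tmcc1 (0.991), and Acot4 with the retinoic acid hydroxylase Cyp26a1 (0.974). Acot13 ran with Pum3 (0.981) and with Lsm1 (0.958), the lowest coefficient among the partners found.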

How the data were processed

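RNA from 6 snap-frozen liver samples was sequenced on a DNB platform, 3 per shRNA group, and groups and replicate numbers were taken from the sample labels. The deposited tables give, per gene, an expected count (unscaled) and FPKM scaled by the authors. The submitters' processing notes list the mm9 build and the tools RSEM 1.2.12, HISAT2, Bowtie2 and DESeq2; which step each served, and the read filters, are not stated there.

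Expected counts were rounded. Genes were filtered with filterByExpr (minimum count 10), scaled by TMM and compared with the edgeR 4.0.16 quasi-likelihood test (two-sided, robust, group only, R 4.3.3), with Benjamini-Hochberg adjustment over all 12230 genes. The script was tested on simulated data. The common biological coefficient of variation was 20%. Libraries held 16558775 to 17410160 expected counts, and a gene not listed in a library was given 0. A group is 3 livers, which limits precision. Alternatives were DESeq2 and upper-quartile factors, other filters, DESeq2 1.42.0, limma-voom (limma 3.58.1), the non-robust fit, a replicate block, limma on log2(FPKM + 0.1) and log2(FPKM + 1) for genes with a mean of at least 0.1 FPKM, counts rounded down, family sums, and each liver left out.

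The 10 genes, the gene lists and the tests were chosen with earlier results of these data known. Named besides them are S1pr2, the called genes of 5 pathway lists (at most 8 each) plus the next 2 by p, the tested genes among the 3 on each side of both gene blocks and any between, and the 2 genes most like each member of at least 5 CPM; 1 gene found by likeness is not reported here. Cyp4a10 and Cyp4a14 are named outside this rule. Coding and promoter sequences come from GENCODE M21 and RefSeq on GRCm38, whereas the submitters' build was mm9, so they describe the genes and not the read mapping.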

Additional observations from a re-analysis of the deposited data

How the results depend on the processing

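Acot1 kept its direction and its call under all 17 alternatives, and Pdilt and Crot under all 18. The count of all called genes, 937, was 1466 with the DESeq2 Wald test and 231 to 643 with 1 liver left out. Of the 10 Acot and Acsm genes, 1 to 4 were called with 1 liver left out, against 4. The pathway lists had 11 called genes, 26 with DESeq2 and 4 to 11 with 1 liver left out. The S1pr2 log2 fold change of -1.12 was -0.90 on log2(FPKM + 0.1) and -0.54 on log2(FPKM + 1), without a call in either, and -1.29 to -0.95 with 1 liver left out. The direction reversed in 3 cases: Acot3 to -0.454 without scramble 2 and -0.139 without S1PR2 3, and Acot13 to -0.049 without scramble 2. With 1 liver left out, Acot3 ranged from -0.454 to 0.653 and Acot13 from -0.049 to 0.105. The cause was not tested beyond the smaller number of livers. Same-numbered livers did not deviate together (correlations of -0.062, 0.222 and -0.116), so the numbers were not taken to pair the livers. With the number as a replicate block, 808 genes were called, 5 of the 10 genes (Acsm5 in addition) and 11 of the pathway genes, no longer with Acss3 (adjusted p = 0.073), Acsl5 (0.0648) and Ppt1 (0.062), and S1pr2 changed by -1.115 on the log2 scale (adjusted p = 0.0684, edgeR). Family sums were not run on FPKM, whose values are scaled by gene length. Acsm2 rests on 8 to 24 counts in the scramble livers and 46 to 122 in the others.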
